A study of Homo sapiens with 4 samples.

Results

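The genes described here are 10 components of the NODAL and activin signalling pathway: the ligands NODAL and GDF3, the co-receptor TDGF1, the receptors ACVR1B and ACVR2B, the antagonists LEFTY1, LEFTY2 and CER1, and the signal transducers SMAD2 and FOXH1. They were taken as a list of named genes, and each was represented by the probe set annotated to it alone that had the highest mean log2 intensity over the arrays. Of the 10 listed genes 8 had such a probe set, among 19775 genes on the array that did, and all 8 passed the filter on low values, as did 14926 genes in all. LEFTY2 and TDGF1 were covered only by probe sets annotated to several genes, so no value is given for either alone. The measurements came from 4 established lines of human germ cell tumours, each measured on 1 single-colour Affymetrix array. Total RNA was the extracted molecule and biotin the label. TCam-2 is labelled as seminoma, NT2D1 as teratoma from a lung metastasis of a testicular tumour, GCT27 as embryonal carcinoma and GCT44 as yolk sac tumour. The labels name no treatment or engineered change, all lines were grown with serum and antibiotics, and TCam-2 was kept in RPMI-1640 while the other lines were kept in Dulbecco's medium, so medium and line cannot be told apart for TCam-2. Each subtype stands on 1 line and 1 array, so no difference below has a replicate error or a test, and precision is limited by this number of arrays.

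NODAL is a secreted ligand of the TGF-beta family that signals, as activin does, through type II receptors such as ACVR2B and the type I receptor ACVR1B (ALK4), which phosphorylate SMAD2. Activated SMAD2 enters the nucleus with SMAD4 and is brought to DNA by partners such as FOXH1. NODAL needs a co-receptor of the EGF-CFC family, of which TDGF1 (Cripto) is a member, whereas activin does not. NODAL, LEFTY1 and LEFTY2 are themselves targets of the pathway, and the LEFTY proteins and CER1 oppose NODAL outside the cell. In human pluripotent cells the pathway is known for sustaining NANOG expression, and in the early embryo for inducing mesoderm and endoderm.

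Intensities are linear, scaled units in which a value means something only within 1 probe set, so levels were compared between lines and never between genes. The median of all values, 76.4 units, served as a floor, and lower values were set to it before any fold was taken because low intensities have no reliable order. A line was set apart for a gene, as higher or lower, where the nearest other line differed from it by 4-fold or more (2 on the log2 scale). The gene is then said to be called in that line. This rule of size carries no error rate. The arrays were alike in median intensity (73.6 to 79.3) and in the share of probe sets over the floor (49.2% to 50.9%). The GCT44 array had spiked-in controls 0.29 above the mean of the arrays on the log2 scale and an ACTB 3'/5' ratio of 4.21, against -0.26 to -0.01 and 2.49 to 2.97 on the others.

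The labels were set against marker genes. Of 7 seminoma markers compared, 4 were called higher in TCam-2, while NANOS3 was under the floor in every line and KIT reached 1144 there against 1160 to 1771 elsewhere. Trophoblast markers were called higher in TCam-2 for 5 of 6. GCT44 was called higher for 5 of 7 yolk sac tumour markers. Of 6 embryonal carcinoma markers compared, 1 (GAL) was called higher in GCT27 and 0 in NT2D1, and POU5F1 had no probe set of its own. Their summed intensity reached 90618 in GCT27 and 69921 in NT2D1, against 19281 in TCam-2 and 19891 in GCT44. Most of the lower sums came from LIN28A, with 14828 units in TCam-2 and 17340 in GCT44. SOX2, USP44 and FGF4 were under the floor in GCT44 but over it in TCam-2. In NT2D1, of the somatic tissue markers of a teratoma, MAP2 was called higher, COL2A1 had 1426 units (5939 in GCT44) and PAX6 85.3, and MYOD1 and KRT5 were under the floor.

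Among the 8 genes compared, the embryonal carcinoma line GCT27 was the only line set apart by the size rule. NODAL and LEFTY1 were called higher in GCT27, 2 of 8, where 0.603% of all genes compared were (7.1% were called in some line, in either direction). None of the 8 was called lower in GCT27 (0.322% of all genes). The counts were also 0 of 8 for genes higher and lower in TCam-2 (1.49% and 0.744% of all genes), in NT2D1 (0.523% and 0.241%) and in GCT44 (1.7% and 1.69%). Highest and lowest lines lay at least 4-fold apart for 4 of 8, namely GDF3, LEFTY1, NODAL and FOXH1, where 20.5% of all genes did. The median span from the lowest to the highest line was 2.23 on the log2 scale for the 8 genes and 1.09 for all genes compared. The genes were listed with earlier results of these arrays known, so these shares describe the list and say nothing about the pathway as a whole. In cultures measured as bulk RNA, fewer expressing cells and less RNA per cell cannot be told apart.

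**Figure D1:**
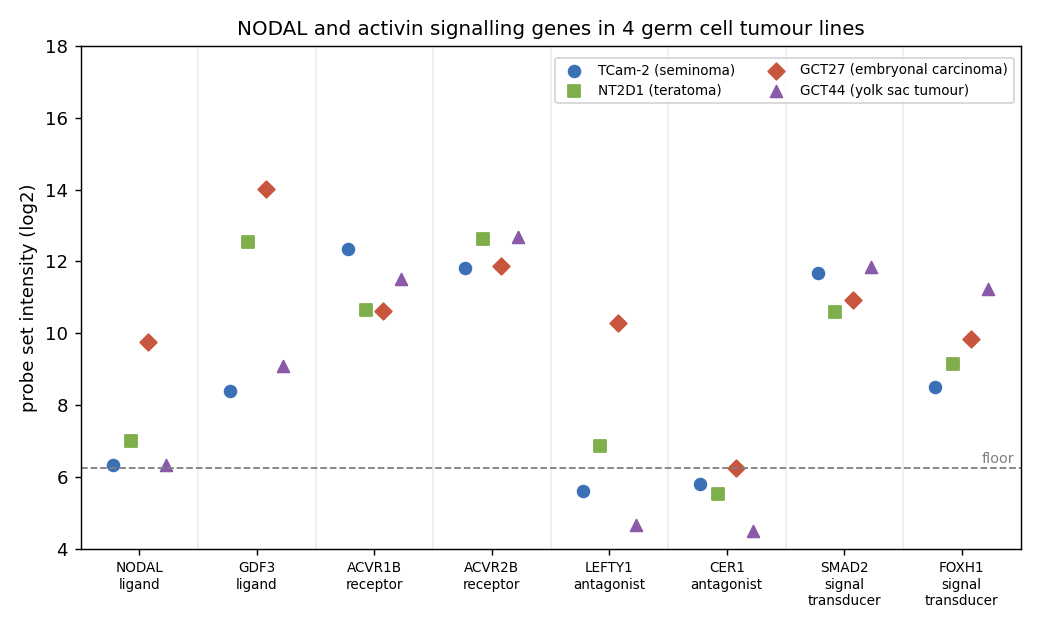
Probe set intensity on a log2 axis for the 8 genes with a probe set of their own, with 1 point per cell line (1 array each, no replicates) and the floor of 76.4 units as a dashed line. NODAL and LEFTY1 stand apart in GCT27, GDF3 is high in GCT27 and NT2D1, ACVR2B lies within 1.81-fold in all lines, and CER1 lies at or under the floor.

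NODAL, the ligand that gives the pathway its name, had 864 units in GCT27, 128 in NT2D1, 81.1 in TCam-2 and 80.5 in GCT44. GCT27 stood apart, 6.73-fold above NT2D1, 10.7-fold above TCam-2 and 10.7-fold above GCT44, and the values of TCam-2 and GCT44 lay just over the floor. A second NODAL probe set had 157 units in GCT27 and 8.05, 9.84 and 3.67 in TCam-2, NT2D1 and GCT44, all under the floor. The remaining NODAL probe set was under the floor on every array, with 26.3 units at most. Taking the median of its probe sets, GCT27 led by at least 1.04 (log2), a bound set by the floor, since the medians of the other lines were under it. At 157 units the second probe set could not reach 4-fold over the floor. The call is thus that of the brightest probe set, and the second had the same highest line.

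GDF3, a ligand of the same family that is expressed in pluripotent cells and can act with TDGF1, had the widest span of the 8 genes. Its single probe set had 16726 units in GCT27, 5915 in NT2D1, 334 in TCam-2 and 543 in GCT44. The lines fell into a high and a low pair, GCT27 and NT2D1 against GCT44 and TCam-2. GCT27 was 5.64 above TCam-2 on the log2 scale and 30.8-fold above GCT44, and NT2D1 was 17.7-fold and 10.9-fold above these lines. Between GCT27 and NT2D1 the difference was 2.83-fold, so no single line was set apart by the rule. Of the protein-coding genes next to GDF3 on chromosome 12 in the GRCh38.p14 gene table, chosen after the values were seen, APOBEC1, CD163 and CLEC4C were under the floor in all lines. DPPA3 had no probe set of its own.

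The sequences before the transcription start sites are shown for both ligands, whose levels differed between lines, and for the receptor ACVR2B, whose level was nearly even, because the study paired these arrays with DNA methylation, which falls on CpG dinucleotides. Methylation values are not used here. Of the 10 genes 7 had start sites in the RefSeq promoter table of GRCh38.p14, matched by gene ID. Each sequence gives the 250 bases before a start site, 5′ to 3′ on the strand of the gene, and capitals mark CpG dinucleotides. NODAL lies at chr10:70441682-70441931 on the minus strand, GDF3 at chr12:7695776-7696025 on the minus strand and ACVR2B at chr3:38453640-38453889 on the plus strand.
NODAL: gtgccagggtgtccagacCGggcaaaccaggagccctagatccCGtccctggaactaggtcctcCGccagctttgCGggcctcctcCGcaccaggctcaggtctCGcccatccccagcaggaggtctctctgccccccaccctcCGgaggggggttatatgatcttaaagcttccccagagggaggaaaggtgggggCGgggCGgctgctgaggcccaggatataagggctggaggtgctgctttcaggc
GDF3: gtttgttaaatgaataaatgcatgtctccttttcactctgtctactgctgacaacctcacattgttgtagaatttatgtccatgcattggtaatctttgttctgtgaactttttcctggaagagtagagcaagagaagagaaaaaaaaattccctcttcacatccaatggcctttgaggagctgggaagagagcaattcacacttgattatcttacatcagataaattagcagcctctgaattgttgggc
ACVR2B: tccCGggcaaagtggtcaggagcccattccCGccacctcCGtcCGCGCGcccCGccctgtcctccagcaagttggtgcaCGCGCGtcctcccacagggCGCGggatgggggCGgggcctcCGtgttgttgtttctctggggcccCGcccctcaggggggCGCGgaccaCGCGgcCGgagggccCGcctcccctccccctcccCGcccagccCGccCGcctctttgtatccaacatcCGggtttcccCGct

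The GDF3 window held 0 CpG dinucleotides at a GC content of 38.4%, the NODAL window 9 at 65.2% and the ACVR2B window 26 at 74%. Over 35116 windows of the same length in the table the median was 11. Of the other genes, the CER1 window held 3, the TDGF1 windows (listed under its current symbol CRIPTO) 2 and 9, the ACVR1B windows 48 and 4 and the SMAD2 windows 43 and 36 at their separate start sites. GDF3, with the widest span over the lines, had the fewest CpG dinucleotides of these windows. ACVR1B, ACVR2B and SMAD2, which spanned less than 4-fold on the probe sets used, each had at least 1 window above the median. Yet the second ACVR1B window, with 4, and the CER1 window, with 3, were also far under it. The span of CER1 was set by the floor, so it cannot be placed beside the others here. LEFTY1, LEFTY2 and FOXH1 had no window. A relation between CpG content and span was not tested. The windows were searched on both strands for AATNCACA, a FOXH1-type motif, and for CAGAC, a SMAD box, with overlapping matches allowed. GDF3 held AATTCACA from 56 to 49 bases before the start and CER1 AATACACA from 154 to 147 bases before it, and 2.89% of all windows held such a match. NODAL held CAGAC from 237 to 233 bases before the start, CER1 from 218 to 214 and ACVR1B, at its second start site, from 124 to 120. That motif was present in 38% of all windows. These matches describe letters in a window and are not evidence of binding.

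The co-receptor TDGF1 could not be read alone. The probe set that detects it is annotated also to CRIPTO3, a near-identical copy, and had 26613 units in GCT27, 9102 in NT2D1, 12204 in TCam-2 and 34480 in GCT44. The joint signal was far over the floor in every line, highest in GCT44 and lowest in NT2D1, with a 3.79-fold span, so it did not follow NODAL. Which of the copies gave it cannot be read from these arrays. CFC1, the other EGF-CFC co-receptor, had 7.47, 7.62 and 60.3 units in TCam-2, NT2D1 and GCT27, all under the floor, and 197 in GCT44. GCT44 was thus the only line with CFC1 over the floor, by at least 2.57-fold, short of the rule.

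The receptors were measured in every line and spanned less than 4-fold on the probe sets used, whereas a second ACVR1B probe set spanned more. ACVR1B, the type I receptor shared by NODAL and activin, had 1587 units in GCT27, 1608 in NT2D1, 5238 in TCam-2 and 2915 in GCT44. TCam-2 was highest, 1.80-fold above GCT44, while NT2D1 and GCT27 were level. ACVR1B had 6 probe sets, and TCam-2 was highest on each of the 5 that reached the floor on any array. The second brightest of them had 1301 units in TCam-2 against 211, 210 and 412 in NT2D1, GCT27 and GCT44, the same order with a 6.19-fold span, past the 4-fold threshold. On it TCam-2 was 3.15-fold above GCT44, so neither probe set gave a call. ACVR2B, a type II receptor for activins and NODAL, had 3782 units in GCT27, 6339 in NT2D1, 3590 in TCam-2 and 6507 in GCT44. GCT44 and NT2D1 were level, as were GCT27 and TCam-2, and the whole span was 1.81-fold. Of its 3 probe sets GCT44 was highest on 2 and NT2D1 on 1.

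LEFTY1, a secreted inhibitor that blocks NODAL and its co-receptor, was likewise high in GCT27. It had 1255 units in GCT27, 115 in NT2D1, 48.3 in TCam-2 and 25.2 in GCT44 on its single probe set. GCT27 was 10.9-fold above NT2D1 and at least 16.4-fold above TCam-2 and GCT44, where it was under the floor. The probe set annotated to both LEFTY1 and LEFTY2 gave another picture, with 262 units in GCT27, 241 in NT2D1, 48.7 in TCam-2 and 16.1 in GCT44. There GCT27 and NT2D1 differed only 1.09-fold, and the other lines were again under the floor. Signal for the LEFTY genes over the floor was therefore found in GCT27 and NT2D1 on either probe set, and how far these lines differ depends on the probe set. CER1 (Cerberus), an antagonist of NODAL, BMP and WNT ligands, had 76.5 units in GCT27, 46.0 in NT2D1, 55.4 in TCam-2 and 22.6 in GCT44. It passed the filter only through GCT27, at the floor itself, so no level of CER1 was measured in any line.

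SMAD2, the receptor-activated transducer of the pathway, had 1939 units in GCT27, 1538 in NT2D1, 3266 in TCam-2 and 3670 in GCT44. On this probe set GCT44 and TCam-2 lay above GCT27 and NT2D1, within 2.39-fold. Of its 6 probe sets, GCT44 was highest on 4 and TCam-2 on 2. The place of TCam-2 depended on the probe set: on 1 of the others it had 1006 units beside 1015 in NT2D1, and on another 117.7 beside 118.5. The widest span of the 6 was 3.31-fold. FOXH1, the DNA-binding partner that directs SMAD2 to NODAL targets, had 913 units in GCT27, 569 in NT2D1, 365 in TCam-2 and 2420 in GCT44 on the probe set used. GCT44 was 6.63-fold above TCam-2, 4.25-fold above NT2D1 and 2.65-fold above GCT27, so FOXH1 was highest in a line where LEFTY1 was under the floor and NODAL just over it. The other FOXH1 probe set had 139 units in GCT44 and 95.4 in GCT27, with 23.3 in TCam-2 and 25.6 in NT2D1, both under the floor. On it the span came to at least 0.87 (log2), a bound set by the floor, over which 139 units could not reach 4-fold. With scaling to the spiked-in controls, which were brightest on the GCT44 array, the margin of GCT44 on the first probe set was 0.86 in place of 1.41. In both settings GCT44 stayed highest.

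**Figure D2:**
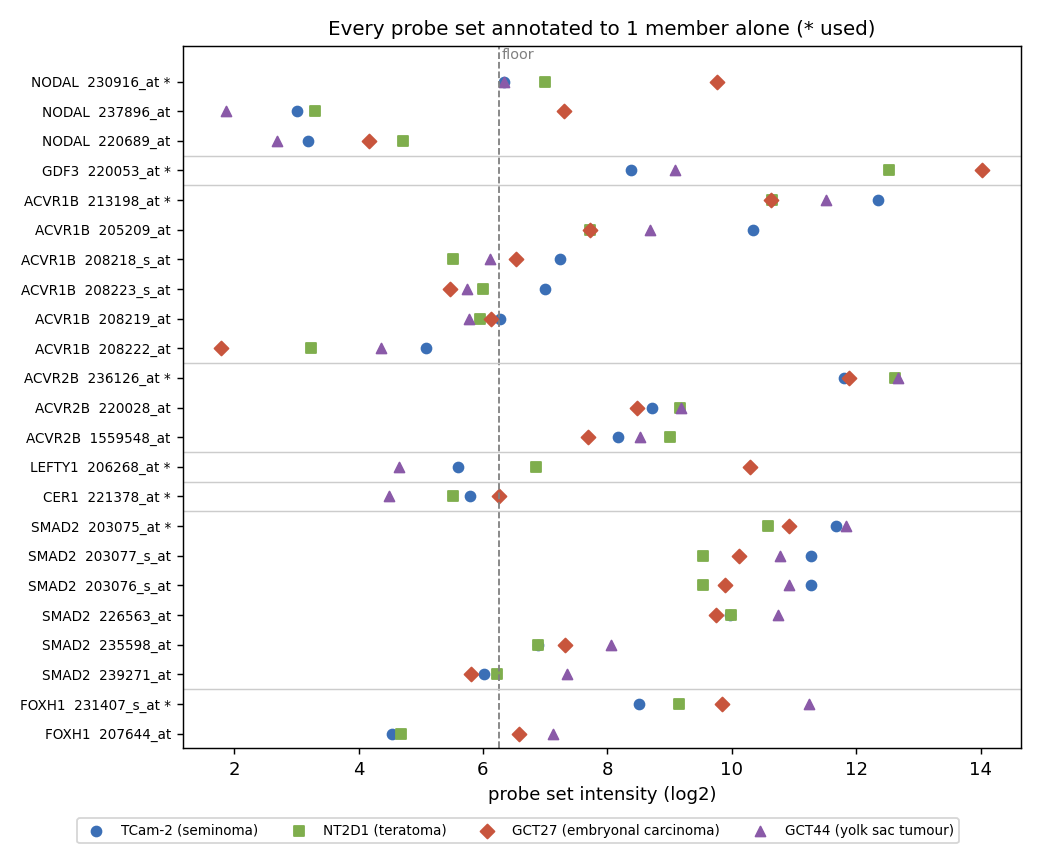
Intensity on a log2 axis for each of the 23 probe sets annotated to 1 of the 8 genes alone, by gene and brightness, with 1 point per line and the floor as a dashed line. GCT27 is highest on the 2 NODAL probe sets that reach the floor, TCam-2 on the 5 such ACVR1B probe sets and GCT44 on both FOXH1 probe sets.

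Compared by pairs of lines, GCT27 and TCam-2 differed at least 4-fold for 3 of 8 genes (7.37% of all genes), and GCT27 and GCT44 also for 3 of 8 (9.45%). In each case these were GDF3, LEFTY1 and NODAL, all higher in GCT27. GCT27 and NT2D1, the lines with the highest embryonal carcinoma markers, differed for 2 of 8, LEFTY1 and NODAL (4.67% of all genes). NT2D1 and GCT44 differed for 2 of 8 (8.53%), with GDF3 higher in NT2D1 and FOXH1 higher in GCT44. NT2D1 and TCam-2 differed for GDF3 alone (8.26%), and GCT44 and TCam-2 for FOXH1 alone (10.1%). On the probe sets used, the receptors and SMAD2 differed by less than 4-fold in all 6 comparisons.

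**Figure D3:**
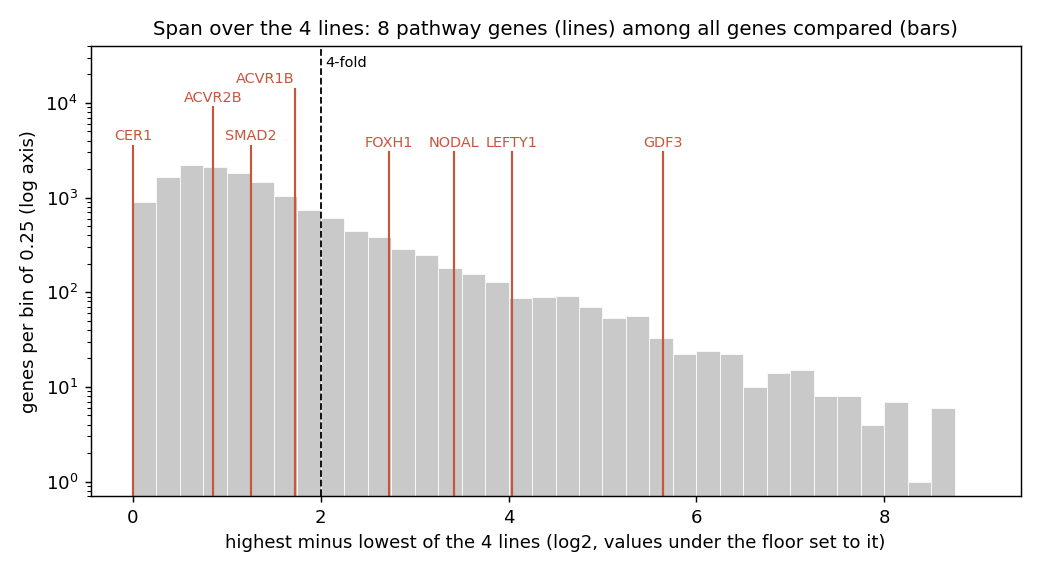
Number of genes, on a log axis, by the difference between the highest and lowest of the 4 lines (log2, bins of 0.25), for the 14926 genes compared, with the 8 pathway genes as vertical lines and the 4-fold threshold dashed. GDF3, LEFTY1, NODAL and FOXH1 lie past the threshold, and ACVR1B, SMAD2, ACVR2B and CER1 do not.

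Other genes of the NODAL, activin and TGF-beta pathway were taken from a list of 64. Comparison was possible for 51, since 7 did not pass the filter and 6 lacked an own probe set. Of the 51, 16 spanned at least 4-fold (31.4%, against 20.5% of all genes). Set apart in a line were 7 of 51, all of them target genes, where 7.1% of all genes were. In GCT27, where NODAL and LEFTY1 were high, 0 of 51 were called higher and 0 lower, with a median difference from the mean of the other lines of -0.23 on the log2 scale (-0.05 in TCam-2, -0.08 in NT2D1, 0.17 in GCT44).

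Of 7 further ligands compared, none spanned 4-fold. INHBC, an inhibin beta chain, had 942, 835, 485 and 1079 units in TCam-2, NT2D1, GCT27 and GCT44, and GDF11, which signals through the same receptors, 328, 295, 215 and 302 in that order. INHBB, which encodes another activin chain, was under the floor in every line, and INHBA, the chain of activin A, reached 141 in NT2D1 and 150 in GCT27 only. Among the convertases that cleave ligand precursors, PCSK5 had 2040, 425, 661 and 2920 units in TCam-2, NT2D1, GCT27 and GCT44, a 6.87-fold span, and FURIN had 208, 132, 246 and 114. TGFBR3, a TGF-beta co-receptor that also binds inhibin, had 658 in GCT27, 967 in NT2D1, 4930 in TCam-2 and 2821 in GCT44, a 7.49-fold span with GCT27 lowest. The receptors TGFBR1 (4100 to 6774) and TGFBR2 (232 to 835, highest in GCT27) spanned 1.65-fold and 3.61-fold.

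Of 9 extracellular antagonists and modulators compared, none met the rule, and GCT27 was lowest for 5, against 17.7% of all genes compared. This count was made after the values were seen. FST (follistatin), which binds and neutralises activin, had 386 units in GCT27, 6152 in NT2D1, 1382 in TCam-2 and 2719 in GCT44. It was 15.9-fold lower in GCT27 than in NT2D1, and 3.58-fold lower than in TCam-2, the nearest line. BAMBI, a receptor-like inhibitor, had 5536, 6529, 1329 and 2596 units in TCam-2, NT2D1, GCT27 and GCT44, again lowest in GCT27, whereas FSTL1, a secreted follistatin-like protein, had 8687, 5421, 3716 and 1722 in that order and was lowest in GCT44. GCT27 was thus lowest for FST and highest for LEFTY1, both secreted inhibitors. FST was chosen after its values were seen.

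SMAD4, the common partner of SMAD2, had 2733, 2465, 1757 and 5334 units in TCam-2, NT2D1, GCT27 and GCT44, and the SMAD4-binding protein TRIM33 had 3120, 5321, 2097 and 3581 in that order. All 12 intracellular inhibitors compared were over the floor in all lines, and 1 of them, NEDD4L, spanned at least 4-fold. SKIL, a repressor that binds SMADs and is itself induced by the pathway, lay between 3409 and 5529, and the corepressor TGIF1 between 3063 and 5046.

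Target genes held most of the wide differences, with 8 of 11 compared spanning at least 4-fold. Of these 11, 5 were called higher in GCT44 and 1 lower, and 1 was called higher in TCam-2, against the shares of all genes given above. EOMES, a mesendoderm transcription factor that is a direct NODAL target, had 1876 units in GCT27, 238 in NT2D1, 130 in TCam-2 and 26237 in GCT44. Its order in the lines other than GCT44 was that of NODAL and LEFTY1, but GCT44 was 14.0-fold above GCT27. FOXA2 (259, 2.83, 4.77 and 6631 units in TCam-2, NT2D1, GCT27 and GCT44) and GATA6 (780, 53.2, 13.7 and 7451), both endoderm factors, were 25.6-fold and 9.55-fold above the next line, TCam-2. LHX1 had 4470 units in GCT44, at least 58.5-fold above the other lines, all under the floor, and SP5 had 1031 there against 91.6 to 167. NANOG, a pluripotency factor, ran the other way, with 22390, 13322 and 22428 units in TCam-2, NT2D1 and GCT27 and 2.29 in GCT44, at least 174-fold lower than in the nearest line. SOX17, an endoderm and germ line factor, had 3819 units in TCam-2, at least 5.64 above the other lines on the log2 scale, all under the floor. GSC, a classical target of NODAL in the embryo, was under the floor in every line, and MIXL1 reached only 93.1 in GCT44. TBXT ran opposite to EOMES in GCT44, with 276, 144 and 233 units in TCam-2, NT2D1 and GCT27 and 23.7 in GCT44, under the floor. HHEX had 136, 142 and 118 units in TCam-2, GCT27 and GCT44 and 23.9 in NT2D1, under the floor. Neither TBXT nor HHEX was called in a line.

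The target genes called higher in GCT44 moved with markers of yolk sac tumour, of which 7 of 7 were over the floor in GCT44. In the other lines 1 or 2 of these markers were over it. Their summed intensity was 43111 in GCT44, against 285 to 557 in the other lines. Most of the GCT44 sum came from APOA2, with 30689 units, while AFP (372) and GATA4 (104) were not called there. FOXA2 stands on both lists, and SOX17 is also a seminoma marker. The part of cell identity in these differences was not tested. OTX2, a further target chosen after its values were seen, divided the lines otherwise, with 750 units in GCT27, 9043 in NT2D1, 892 in TCam-2 and 9762 in GCT44. GCT27 and NT2D1, both high in GDF3, thus fell on opposite sides for OTX2 and FST.

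**Figure D4:**
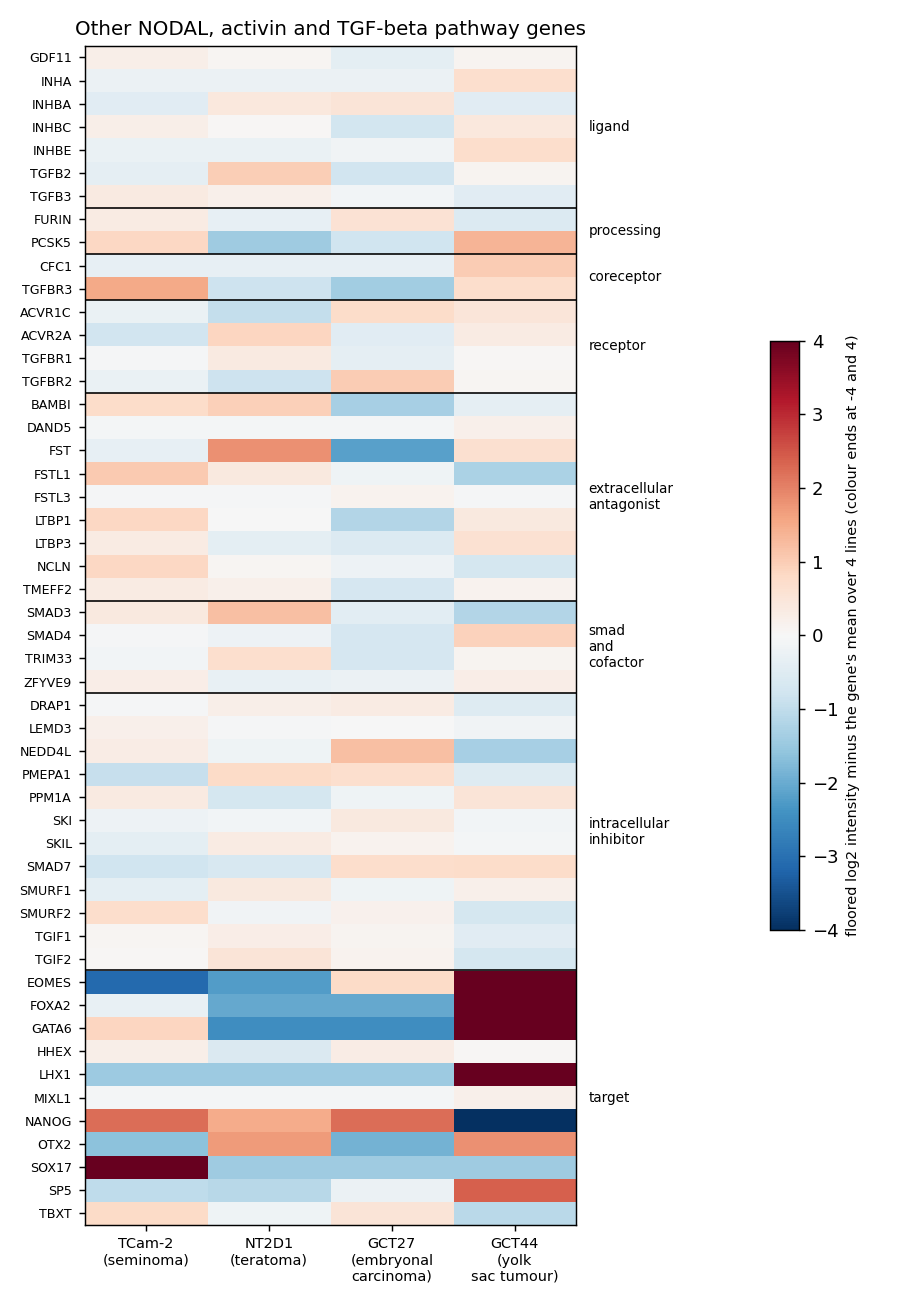
Floored log2 intensity minus the mean of each gene over the 4 lines for the 51 other pathway genes compared, grouped by role, with 1 column per line (1 array each) and colours that end at -4 and 4. The target genes hold the 7 called differences, 5 of them higher in GCT44, while 1 of the 12 inhibitors inside the cell, NEDD4L, spans at least 4-fold.

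The genes outside these lists with the most similar profiles were found by the Euclidean distance between centred, floored log2 values over the 4 lines, among 3018 genes that spanned at least 4-fold. With 4 points many genes come close, so this names neighbours and nothing more. For NODAL these were MRGPRF (distance 0.21), MRAP2 (0.35) and SEMG1 (0.35), and for LEFTY1 they were SEMG1 (0.26), BBS9 (0.47) and CXCL5 (0.50). SEMG1, a semen coagulation protein, had 53.7, 131, 1103 and 9.97 units in TCam-2, NT2D1, GCT27 and GCT44. Nearest to GDF3 were PIPOX (0.61) and the protease inhibitor genes TFPI2 (0.64) and TIMP4 (0.72), all high in NT2D1 and GCT27. FOXH1 was closest to RILPL2 (0.16), CRAT (0.26) and PDE4A (0.28), which were highest in GCT44.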

How the data were processed

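Total RNA of 4 cell lines was measured by Affymetrix arrays (54675 probe sets), with a single array for each line. The deposited intensity values are linear, with a mean of 499.9 after trimming 2% at each end of every array. RMA is named without a version in the submitters' processing notes, but its usual output is log2, so the scaling was inferred from the values and log2 was taken here. The genome build used upstream is not given in the sources used here. Of the probe sets, 41097 were annotated to 1 gene symbol, 1801 to several and 11777 were not listed. Symbols were updated by gene ID.

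The pathway genes, lists and rules were chosen with earlier results of these data known. Genes entered a comparison if any array reached 76.4 units. No significance test was run. Named were all 10 listed genes, other pathway genes called in a line, for a role without a call the 2 genes with the highest value, and the 3 most similar profiles for the 4 widest spans. Further genes are named as chosen after their values were seen or to complete a role. Alternatives changed the probe set rule, filter, floor, scaling, threshold, reference and lines used. Python 3.11.15, numpy 2.4.6 and pandas 2.3.3 were used.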

Additional observations from a re-analysis of the deposited data

How the results depend on the processing

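Counts were recomputed for 24 results, of which 280 values under an alternative lay within 1.5 times the reported count and 44 did not. With the median over probe sets, 1 listed gene was higher in GCT27 and 1 differed between NT2D1 and GCT27, and 1 other pathway gene was higher in NT2D1. Without _s_at and _x_at probe sets, which can match several transcripts, 0 listed genes differed between TCam-2 and GCT44 and 1 between NT2D1 and GCT44. With no floor, 2 other pathway genes were lower in TCam-2, 3 in NT2D1 and 2 in GCT44. With floor and filter at the 70th percentile (252 units), 1 listed gene was higher in GCT27 and 1 differed between NT2D1 and GCT27. With spiked-in scaling, 1 listed gene differed between NT2D1 and GCT44, and the median log2 difference of all genes, each line against the mean of the rest, was 0.29 in GCT27 and -0.31 in GCT44. At a threshold of 1, 1 listed gene was higher in GCT44, 3 differed between TCam-2 and NT2D1 and 5 between TCam-2 and GCT27. Of the other pathway genes at that threshold, 1 was higher in NT2D1, 2 lower in GCT27, 3 lower in GCT44 and 33 spanned it. Against the mean of the other lines, 1 listed gene was lower in TCam-2, 1 higher in NT2D1, 1 higher in GCT44 and 1 lower in GCT44. Of the other pathway genes in that setting, 3 were higher and 2 lower in TCam-2, 2 higher and 3 lower in NT2D1 and 1 higher and 4 lower in GCT27. The causes were not tested beyond how each setting is built.

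With each line left out in turn, listed genes higher in NT2D1, higher in GCT44, lower in GCT44 and lower in TCam-2 numbered 0 to 1 each, and those spanning 4-fold 2 to 4, with 2 without GCT27. Other pathway genes higher in TCam-2 numbered 1 to 3, lower in TCam-2 0 to 1, higher in NT2D1 0 to 2, lower in NT2D1 0 to 2, higher in GCT27 0 to 1 and lower in GCT27 1 to 2. Those spanning 4-fold numbered 9 to 15, with 9 without GCT44. These settings compare fewer lines. No value changed direction past the threshold. NODAL lost its call with the median over probe sets (at least 1.04 on the log2 scale) and with the higher floor (at least 1.78), both bounds set by the floor. LEFTY1 kept its call in every setting run with GCT27, at 2.32 to 4.04. It has a single probe set of its own, so the settings that change the probe set rule could not alter its margin. The probe set shared with LEFTY2, on which GCT27 and NT2D1 were nearly level, entered no setting. No paired analysis was possible because each line has 1 array. Intensities near the floor, as for CER1 and for NODAL outside GCT27, limit what can be ordered.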
